A study of Rattus norvegicus with 10 samples.

Results

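The 9 genes described here belong to the antioxidant pathway of NRF2. They are Nfe2l2, which encodes NRF2 itself, and Gclc, Gclm, Gsr, Txnrd1, Srxn1, Nqo1, Hmox1 and Akr7a3, which are known targets of NRF2 or enzymes of the same defence. They were chosen by name, and each was represented by the probe set, among those assigned to it alone, with the highest variance over the 10 arrays. All 9 were found among the 14217 genes measured.

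NRF2 is a transcription factor that is held in the cytoplasm by KEAP1 and degraded, until oxidants or electrophiles modify KEAP1 and NRF2 accumulates in the nucleus. There it pairs with small MAF proteins at antioxidant response elements, short DNA motifs near genes of glutathione synthesis, thioredoxin recycling and detoxification. Because the control is largely on protein stability, the amount of Nfe2l2 mRNA is not a direct readout of NRF2 activity. In liver the pathway is known for the defence of hepatocytes against toxicants.

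RNA came from whole frozen livers of male Wistar rats in which cirrhosis had been induced by inhaled CCl4, a solvent that injures hepatocytes, and every rat carried this injury. In the CVX-060 group, 5 rats received 10 mg/kg of CVX-060, an inhibitor of angiopoietin 2 and so of a ligand of the endothelial receptor Tie2, into the tail vein once a week for 4 weeks. In the vehicle group, 5 rats were injected with vehicle. Healthy rats were not analysed here, so the values do not show what cirrhosis itself did to these genes. The labels call the rats biological replicates, each with an array of its own, and the number of arrays limits the precision. After quality control and a principal component plot, the study retained only part of the replicates of each treatment for its own analysis. All arrays of both groups are used here.

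The values are log2 signals, so that a difference of 1 is a doubling, and they are compared between rats within a gene and not between genes. In bulk tissue, fewer cells of a type and less RNA per cell cannot be told apart. Of the 7 hepatocyte markers measured, 6 stood above background in every rat, and the exception was Fgb, which did so in none. Whether a signal below background reflects the gene or its probe set was not tested, for Fgb or for other genes. On the first principal component of all genes, CVX-060 rat 5 at 35.5 and vehicle rat 2 at 34.5 stood away from the rest. The remaining rats were at -26.2 to 9.74. Differences of the members, and the correlations that passed the test, are also given without CVX-060 rat 5 and vehicle rat 2.

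Promoter sequences are shown for the members that held an antioxidant response element core upstream of the start site, so that the letters behind the counts can be seen. RefSeq promoters on the GRCr8 rat assembly, of 250 bases before and 50 after each start, were matched for 7 of the 9 members. Hmox1 and Gsr were not matched. Each promoter was searched on both strands for TGACNNNGC, and TGAGNNNGC was added after the matches to the first form had been seen. The capitals mark the match, which here lies on the opposite strand and so reads as its reverse complement.
Gclm, chr2:213031943-213031991, + strand: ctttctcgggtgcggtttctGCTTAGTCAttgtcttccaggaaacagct
Txnrd1, chr7:22755954-22756002, - strand: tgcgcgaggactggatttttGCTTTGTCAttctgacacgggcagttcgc
Srxn1, chr3:161064674-161064722, + strand: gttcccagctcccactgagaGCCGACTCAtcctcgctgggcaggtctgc

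The match lay 172 to 164 bases before the start site in Gclm and 78 to 70 bases before it in Txnrd1, of which a second promoter held none. The 7 members had 8 promoters, and a member was counted if any of its own held a match, whereas the percentages are of promoters. TGACNNNGC occurred in 3 of the 7 members, Gclm, Txnrd1 and Nfe2l2, and in 12.1% of all 33469 promoters. In Nfe2l2 it lay 39 to 47 bases after the start. With the added form, 4 of 7 members had a match, against 27.1% of all promoters, and Srxn1 was the additional gene, with 3 matches. One of these crosses the start site and overlaps TGANTCA, the core bound by AP-1 factors, which was found in 7.33% of all promoters. These matches describe letters and not bound sites, and the lack of a match in Nqo1, Gclc and Akr7a3 says only that the letters are not in this window.

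The first question was whether CVX-060 altered the signal of these genes. None of the 9 members passed the test of CVX-060 against vehicle rats, and the groups overlapped for each of them. An adjusted p of 0.05 in limma was passed by 0 of 9 members and by 0 of all 14217 genes, or 0%. At an unadjusted p under 0.05 the count was again 0 of 9, beside 347 genes or 2.44% of all. In 0 of 9 the groups were free of overlap, as they were in 0.485% of all genes. The mean was higher with CVX-060 for 4 of 9 members, where 52.6% of all genes were higher, and the median difference was -0.02 for the members and 0.01 for all genes. The exact two-sided permutation p of the single members ran between 0.437 and 0.881, where 5 against 5 rats allow a p as low as 0.00794.

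**Figure D1:**
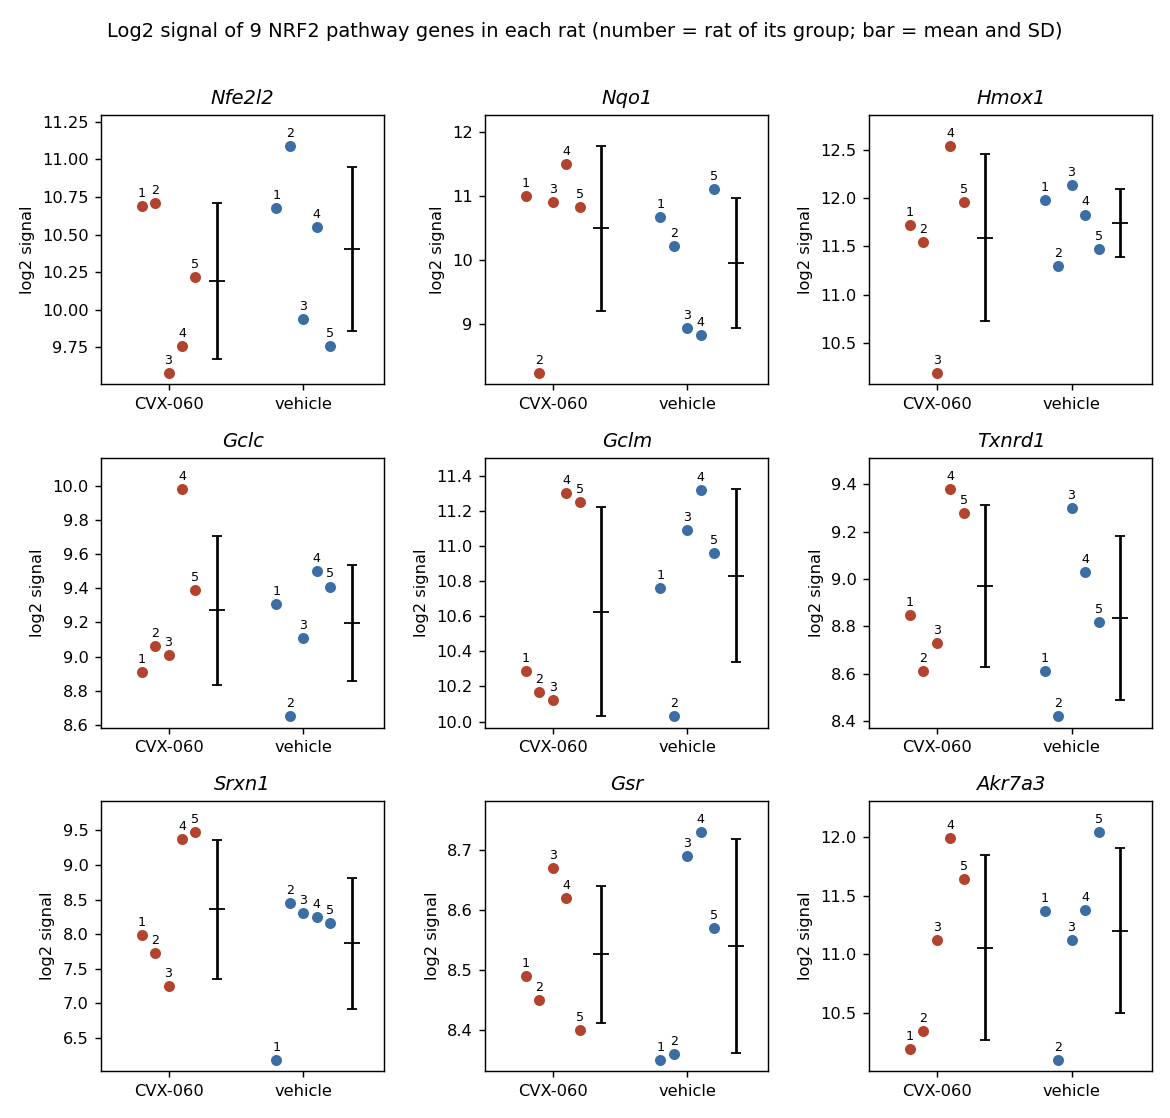
Log2 signal of each of the 9 genes (vertical axes, with a scale of their own per gene) in 5 CVX-060 rats, left, and 5 vehicle rats, right; points are rats, numbered within their group, and bars give mean and SD. The groups overlap for every gene, and the low points of Nqo1 (8.24 in CVX-060 rat 2) and Srxn1 (6.19 in vehicle rat 1) stand away from their groups.

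The regulator came first. Nfe2l2 had log2 signals of 10.69, 10.71, 9.58, 9.76 and 10.22 in CVX-060 rats 1 to 5, against 10.68, 11.09, 9.94, 10.55 and 9.76 in vehicle rats 1 to 5. The groups overlapped over most of their range, with the lowest rat in the CVX-060 group and the highest in the vehicle group. The difference was -0.21 on the log2 scale (SE 0.30, 95% interval -0.87 to 0.45).

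The rate of glutathione synthesis is set by glutamate-cysteine ligase, with GCLC as its catalytic and GCLM as its modifier subunit. Gclc had log2 signals of 8.91, 9.06, 9.01, 9.98 and 9.39 in CVX-060 rats, against 9.31, 8.65, 9.11, 9.50 and 9.41 in vehicle rats, and both the highest and most of the low values fell in the CVX-060 group. Gclm had 10.29, 10.17, 10.12, 11.30 and 11.25 in CVX-060 rats, against 10.76, 10.03, 11.09, 11.32 and 10.96 in vehicle rats. In both genes, CVX-060 rats 4 and 5 were high in their group and vehicle rat 2 was the lowest of all 10. The differences were 0.08 for Gclc (SE 0.22) and -0.21 for Gclm (SE 0.31). A second Gclc probe set followed the first over the rats (r = 0.974) and gave a difference of 0.10.

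Gsr, glutathione reductase, which returns oxidized glutathione to its reduced form, was the steadiest member. Its log2 signals were 8.49, 8.45, 8.67, 8.62 and 8.40 in CVX-060 rats and 8.35, 8.36, 8.69, 8.73 and 8.57 in vehicle rats. The highest rat was 1.30-fold above the lowest. The difference of -0.02 (SE 0.10) had the narrowest interval of the 9 genes, from -0.23 to 0.20, which spans folds of 0.852 to 1.15.

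Txnrd1 encodes the cytosolic thioredoxin reductase, and Srxn1 encodes sulfiredoxin, which repairs over-oxidized peroxiredoxins. Txnrd1 had log2 signals of 8.85, 8.61, 8.73, 9.38 and 9.28 in CVX-060 rats, against 8.61, 8.42, 9.30, 9.03 and 8.82 in vehicle rats, with a difference of 0.14 (SE 0.20). Srxn1 had 7.99, 7.73, 7.25, 9.37 and 9.47 in CVX-060 rats, against 6.19, 8.45, 8.30, 8.25 and 8.16 in vehicle rats. CVX-060 rats 4 and 5 were the highest in Srxn1 and the other 3 CVX-060 rats lay below 4 of the 5 vehicle rats. The difference in Srxn1 was 0.50 (SE 0.54, 95% interval -0.70 to 1.69) between means, -0.26 between medians, and 0.08 between means without vehicle rat 1. A second probe set of Srxn1 gave the same rat pattern (r = 0.971, difference 0.48), and the remaining one stood above background in 0 rats.

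Among the detoxifying enzymes, Nqo1, a quinone reductase widely used as a marker of NRF2 activity, had the widest spread between rats within groups of the 9 members. Its log2 signals were 11.01, 8.24, 10.92, 11.50 and 10.83 in CVX-060 rats, against 10.68, 10.22, 8.95, 8.84 and 11.11 in vehicle rats. Cut at their widest gap, the 10 values gave a lower level of 3 rats at 8.24 to 8.95 and an upper level of 7 rats at 10.2 to 11.5. Whether these are separate levels was not tested. The gap between them was 1.27 on the log2 scale, or 2.41-fold, and the next widest gap was 0.597. The lower level held 1 CVX-060 rat and 2 vehicle rats. The difference between groups was 0.54 (SE 0.64, 95% interval -0.89 to 1.96). It was 1.10 without CVX-060 rat 2, 0.26 without vehicle rat 4, 0.29 without vehicle rat 3 and 0.29 without CVX-060 rat 4.

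Hmox1 encodes haem oxygenase 1, which degrades haem and is also under control of BACH1. Its log2 signals were 11.72, 11.55, 10.19, 12.54 and 11.96 in CVX-060 rats, against 11.98, 11.30, 12.14, 11.83 and 11.47 in vehicle rats. CVX-060 rats held both extremes, rat 3 the lowest and rat 4 the highest. The difference was -0.15 (SE 0.37), and 0.20 without CVX-060 rat 3.

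Akr7a3 encodes an aldehyde reductase that detoxifies aflatoxin dialdehyde in rat liver. Its log2 signals were 10.19, 10.34, 11.12, 11.99 and 11.64 in CVX-060 rats, against 11.37, 10.10, 11.12, 11.38 and 12.04 in vehicle rats. Low values near 10 occurred in both groups, and so did values near 12. The difference was -0.15 (SE 0.42).

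**Figure D2:**
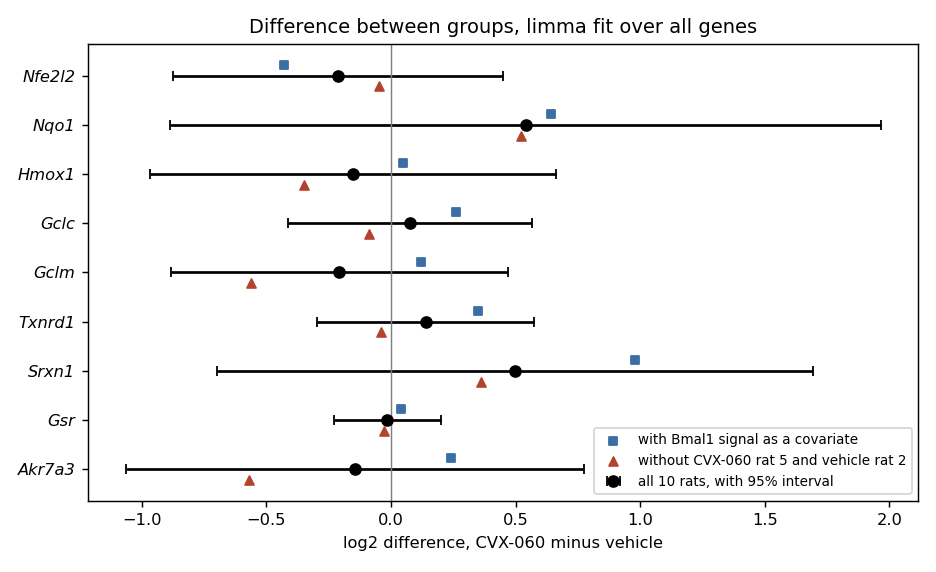
Log2 difference, CVX-060 minus vehicle, for each gene from the limma fit, with its 95% interval (black, n = 5 rats a group), and the same difference with the Bmal1 signal as a covariate (blue squares) or without CVX-060 rat 5 and vehicle rat 2 (red triangles). Every interval of the fit over all rats includes 0, and the sign of several genes depends on the fit.

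Signs depended on which rats and terms entered the fit. With the signal of Bmal1, a core circadian clock gene, as a covariate, 8 of 9 members were higher with CVX-060, and without CVX-060 rat 5 and vehicle rat 2 only 2 of 9 were, Nqo1 and Srxn1. No member passed the adjusted threshold in either fit. The Bmal1 signals fell into separate ranges with a wide gap, given below, so this covariate acted much like a split of the rats. Without CVX-060 rat 5 and vehicle rat 2, the difference went from -0.21 to -0.56 for Gclm and from -0.15 to -0.57 for Akr7a3. It went from -0.15 to -0.35 for Hmox1 and from -0.21 to -0.05 for Nfe2l2. For the remaining members it was then 0.36 for Srxn1, 0.52 for Nqo1, -0.03 for Gsr, -0.09 for Gclc and -0.04 for Txnrd1.

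The members varied more between rats than most genes did. Within-group SDs were in the top 10% of the 7526 genes above background in all rats for 6 of the 9 members and in the top 5% for 4, which were Nqo1, Srxn1, Akr7a3 and Hmox1. The median SD of those genes was 0.214 on the log2 scale. The percentile was 99.6 for Nqo1 and 99.3 for Srxn1, and the highest rat was 9.54-fold above the lowest for Nqo1 and 9.75-fold for Srxn1. For the members and all other genes, the probe set had been picked for its high variance over these same arrays. The lowest Srxn1 signal, 6.19 in vehicle rat 1, was close to the background cutoffs of the arrays, 5.34 to 6.06. A second Srxn1 probe set had a narrower range, 9.47 to 12.03. Gsr, at percentile 24.9, varied less than most genes.

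The second question was whether the members varied together from rat to rat. Over 10 rats, 36 pairs were compared, of which 2 passed an adjusted p of 0.05. Gclc followed Akr7a3 with Pearson's r = 0.853 (permutation p = 0.00062, adjusted p = 0.0223) and Spearman's rho = 0.927 (permutation p = 0.00037, adjusted p = 0.0133). Gclc followed Gclm with r = 0.826 (permutation p = 0.0014, adjusted p = 0.0252) and rho = 0.891 (permutation p = 0.00124, adjusted p = 0.0223). With the group means removed, r was 0.875 for Gclc with Akr7a3 (adjusted exact permutation p = 0.0425) and 0.873 for Gclc with Gclm (adjusted exact permutation p = 0.08).

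Without the 2 farthest rats, CVX-060 rat 4 and vehicle rat 2, r was 0.815 for Gclc with Akr7a3 (exact permutation p = 0.0102) and 0.832 for Gclc with Gclm (exact permutation p = 0.0213), both p unadjusted. The adjusted call itself changed with fewer rats. Both pairs missed it without CVX-060 rat 4 (adjusted exact permutation p = 0.0915), vehicle rat 1 (0.0625) or vehicle rat 2 (0.115). Gclc with Gclm also missed it without vehicle rat 5 (0.0532). For Gclc with Akr7a3 and Gclc with Gclm, r was 0.86 and 0.85 without CVX-060 rat 4. It was 0.85 and 0.83 without vehicle rat 1, and 0.80 and 0.77 without vehicle rat 2. Without CVX-060 rat 5 and vehicle rat 2, r was 0.798 and 0.785, and with 8 rats neither pair passed (adjusted exact permutation p = 0.19). Gclm with Txnrd1 (r = 0.817) and Gclm with Akr7a3 (r = 0.805) missed the threshold at an adjusted permutation p of 0.0674 each, as did Hmox1 with Gclm (r = 0.696). With the group means removed, Gclm with Txnrd1 passed (r = 0.904, adjusted exact permutation p = 0.0425), and Gclm with Akr7a3 and Hmox1 with Gclm did not (adjusted exact permutation p = 0.156 each).

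**Figure D3:**
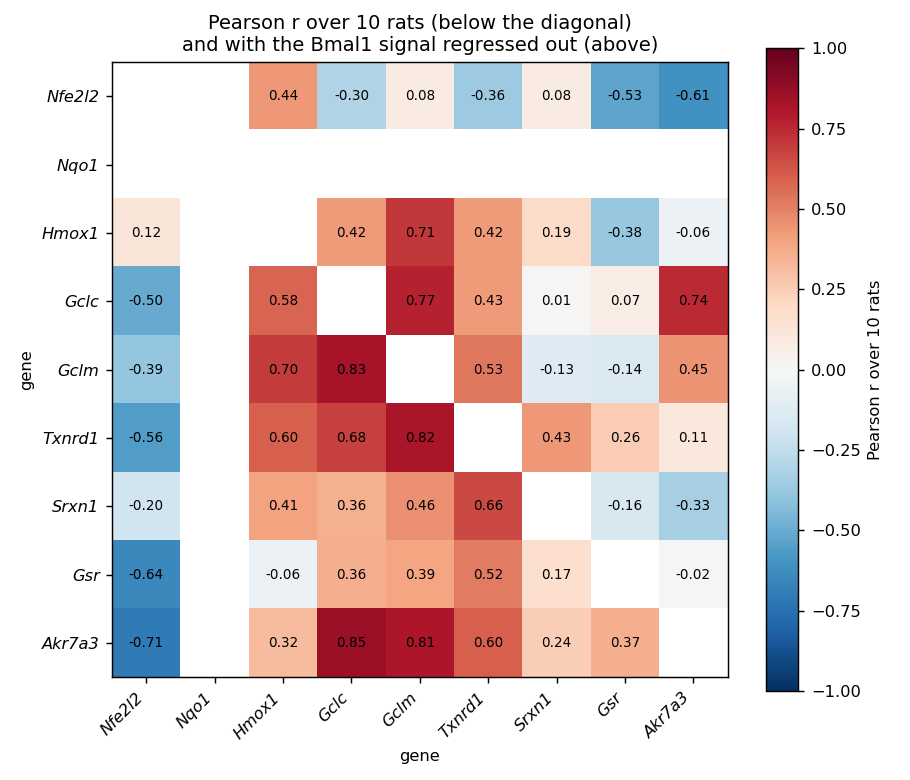
Pearson's r between the signals of each pair of genes over 10 rats (below the diagonal), and after the Bmal1 signal was regressed out of both (above it), on a colour scale of -1 to 1. Below the diagonal, r is highest for Gclc with Akr7a3 at 0.85, followed by Gclc with Gclm, Gclm with Txnrd1 and Gclm with Akr7a3. Cells of Nqo1 are left blank because a wide gap split its values.

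Bmal1 ran opposite to Gclm from rat to rat. The 5 rats with the highest Gclm, at 10.96 to 11.32, had Bmal1 signals of 4.87 to 5.75, and the 5 rats with the lowest Gclm, at 10.03 to 10.76, had 7.90 to 8.75. Both groups had rats at each end, with 2 CVX-060 rats and 3 vehicle rats among the first. Gclc, Akr7a3 and Txnrd1 did not split as cleanly. Vehicle rat 1, with high Bmal1, was above vehicle rat 3, with low Bmal1, in Gclc (9.31 and 9.11) and Akr7a3 (11.37 and 11.12). In Txnrd1, CVX-060 rat 1, with high Bmal1, was at 8.85 and vehicle rat 5, with low Bmal1, at 8.82. The lower range of Bmal1 was near the background cutoffs of the arrays, 5.34 to 6.06, and a wide gap separated it from the upper range. Regressing Bmal1 out thus acted much like removing a difference between these sets of rats. With Bmal1 regressed out of both genes, r was 0.745 for Gclc with Akr7a3 and 0.769 for Gclc with Gclm, but 0.528 for Gclm with Txnrd1 and 0.450 for Gclm with Akr7a3. The part of the clock, or of the hour of sampling, in these values was not tested.

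**Figure D4:**
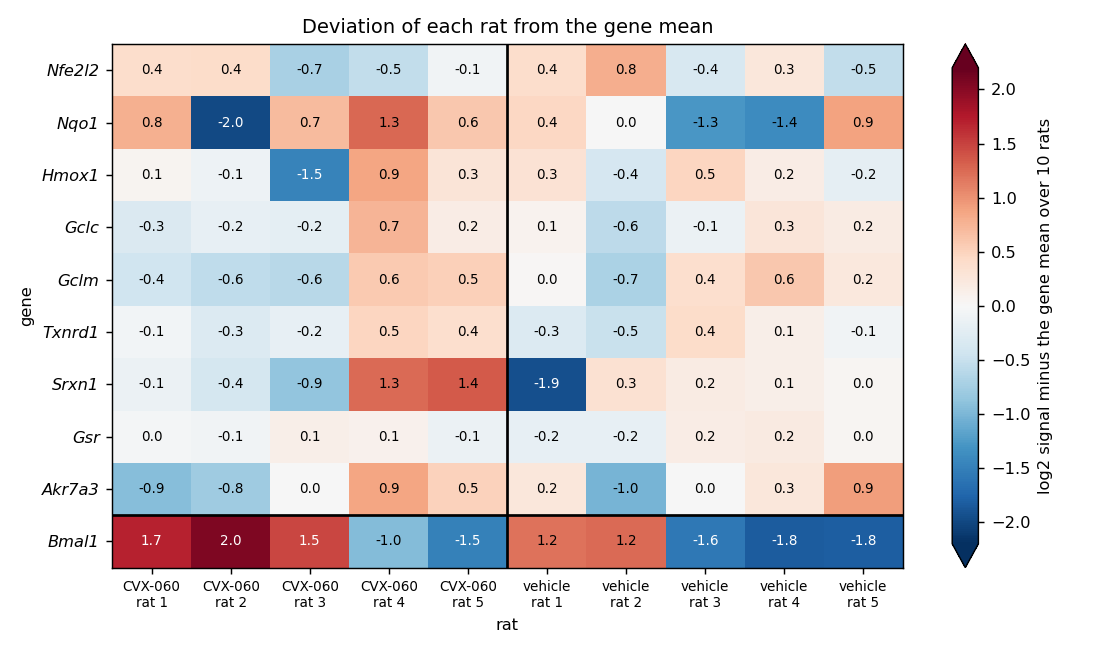
Log2 signal of each gene minus its mean over the 10 rats (colour and number), with CVX-060 rats left and vehicle rats right of the line, and Bmal1 in the bottom row. Gclc, Gclm and Txnrd1 were above their means in CVX-060 rats 4 and 5 and below them in CVX-060 rats 1 to 3 and vehicle rat 2.

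Nfe2l2 mRNA had no pair past the threshold. Of its 7 pairs with members other than Nqo1, 6 had a negative r, the lowest being -0.707 with Akr7a3 (adjusted permutation p = 0.142), and the highest r was 0.121, with Hmox1. For Nqo1 no correlation over all rats is given, because a wide gap split its values. Over the 7 rats of the upper level, which were picked by the Nqo1 signal itself, none of its 8 pairs passed (adjusted exact permutation p = 0.0869 at the lowest), and none passed over all 10 rats.

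Other genes followed the members as closely or more so, by r over 10 rats among 7517 genes above background, which is a description, since the same rats and arrays underlie every value. Nearest to Gclm were Erlin1 (0.960), Mxi1 (0.959) and Mxd4 (0.926), and 48 genes stood closer to it than Gclc did. Nearest to Gclc were Ssr4 (0.956), Dusp11 (0.954) and Banf1 (0.936). Of the 7517 genes, 94 (1.25%) stood closer to Gclc than Akr7a3 did, and 146 (1.94%) closer than Gclm did. The 2 pairs that passed were thus not the closest to Gclc. Nearest to Nfe2l2 was Mapkapk3 (0.974), and nearest to Srxn1 was Arfgef1 (0.975).

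The wider pathway was taken from lists of genes by role, and in limma 0 genes passed the adjusted threshold in each of them, as for all genes. The counts of higher and lower genes include genes not above background in all rats. Above it in all rats were 7 of 10 regulators and partners, 16 of 20 glutathione genes, 4 of 5 genes of NADPH supply and 8 of 11 of detoxification. In the other lists of the pathway every measured gene was. Of 10 regulators and partners of NRF2, 3 were higher and 7 lower in mean with CVX-060, and the lowest p was that of Maff, a small MAF partner (9.37 in CVX-060 rats and 9.88 in vehicle rats, difference -0.51, unadjusted p = 0.0963). Keap1, the inhibitor, averaged 5.42 in CVX-060 rats and 5.46 in vehicle rats. Its signal stood above background in 0 rats, so these means say little about its level. Of 20 measured genes, among 22 listed, of glutathione synthesis, use and export, 8 were higher and 12 lower. Gsta3, a glutathione transferase, averaged 10.3 in CVX-060 rats and 9.62 in vehicle rats (difference 0.67, exact permutation p = 0.127).

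Of 12 genes, among 14 listed, of the thioredoxin and peroxiredoxin system, 4 were higher and 8 lower. Prdx4, a peroxiredoxin of the endoplasmic reticulum, spanned 11.38 to 11.79 in CVX-060 rats and 11.81 to 11.94 in vehicle rats. The groups thus came close but did not overlap, as in 0.485% of all genes (difference -0.19, exact permutation p = 0.00794, the smallest possible). Prdx4 was named for the lowest p of its list and did not pass in limma (unadjusted p = 0.049). NADPH feeds the reductases above. Of 5 genes that supply it, among 6 listed, the mean was higher for 4 and lower for 1 with CVX-060 (median difference 0.17). Idh1, among the 4 with a higher mean, stood above background in 0 rats and had a difference of 0.0006. Taldo1, transaldolase of the pentose phosphate pathway, averaged 10.8 in CVX-060 rats and 10.7 in vehicle rats (difference 0.17, exact permutation p = 0.0317), and did not pass in limma.

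Of 11 genes, among 12 listed, of quinone, carbonyl and epoxide detoxification, 6 were higher and 5 lower, and Akr7a2, a relative of Akr7a3, differed by -0.30 (exact permutation p = 0.103). Of 8 genes, among 10 listed, of haem and iron handling, 4 were higher and 4 lower. Of the 4 superoxide dismutases and catalase, 1 was higher and 3 lower. The medians of these lists were 0.00, -0.01 and -0.02.

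Markers of other liver cells are given because each of them can hold NRF2 targets. All 8 macrophage markers and all 6 sinusoidal endothelium markers were higher in mean with CVX-060, with medians of 0.25 and 0.38, and none passed in limma. The mean macrophage marker signal was 8.78 to 9.69 in CVX-060 rats and 8.81 to 9.25 in vehicle rats, and that of the endothelium 9.08 to 9.61 in CVX-060 rats and 8.64 to 9.32 in vehicle rats. Their part in the values of the members was not tested. The hepatocyte markers had a median difference of 0.00, with 4 higher and 3 lower in mean. Alb spanned only 14.77 to 14.81 over the rats, and Apoa1 12.57 to 13.77. Whether such signals follow the share of hepatocytes was not tested. Of 8 stellate cell and myofibroblast markers 5 were higher and 3 lower in mean. Of 5 cholangiocyte markers 3 were higher and 2 lower, and of 3 erythroid markers 1 was higher and 2 lower. In these lists, 5 stellate cell, 2 cholangiocyte and 1 erythroid marker stood above background in all rats, and none of the markers passed in limma.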

How the data were processed

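RNA of 10 livers, 5 from CVX-060 rats and 5 from vehicle rats, was hybridized to Affymetrix Rat Genome arrays. The authors deposited normalized log2 signals, a value for each probe set and array. Tools listed in the submitters' processing notes were R 3.4.0 with affy 1.56.0 and limma 3.38.2. How background was corrected is not given in the sources used here. Array medians were 5.52 to 5.57, and no further normalization was applied. Groups were taken from the labels.

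Of 31099 probe sets, 57 controls and 436 with several symbols were left out, as were those with no symbol, which left 20826 of 14217 genes. Where a gene had several, the one that varied most over the arrays was kept. A limma fit (3.58.1, R 4.3.3; lmFit, then eBayes) compared the groups, and p-values were adjusted after Benjamini and Hochberg across the 14217 genes. Differences of single genes were also tested exactly, two-sided, by permutation of rats in all 252 ways to take 5 of 10. Correlations used 100000 permutations, or all of them for fewer than 10 rats, adjusted over 36 pairs. With the group means removed, all permutations of rats within each group were used. Correlations over the upper level of Nqo1 were adjusted over its 8 pairs. These ran in Python 3.11.15 with scipy 1.17.1, numpy 2.4.6 and pandas 2.3.3, and plots were drawn by matplotlib 3.10.9. Background was the 95th percentile of 20 chemosensory receptor probe sets on each array.

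The members, the gene lists and the tests were chosen with earlier results of these data known. All 9 members were named, and up to 3 genes of each other list by the lowest p, with Keap1 named after its value was seen. Alternatives were another probe set per gene, renormalization, array weights, a replicate block, a low-signal filter, Bmal1 as a covariate and leaving out rats. The regression of Bmal1 out of the pairs, the upper level of Nqo1, the medians and the promoter motif TGAGNNNGC were added after seeing the data. The limma script was tested on simulated data.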

Additional observations from a re-analysis of the deposited data

Results flagged for a closer look

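Of 18 sets of 5 rats, 9 genes in each group, 2 held a rat far from the others by Dixon's test, which by chance marks about 1 set in 20. Nqo1 was 8.24 in CVX-060 rat 2, where the other CVX-060 rats were at 10.83 to 11.50, and the gap was 0.793 of the range against a critical value of 0.710. Srxn1 was 6.19 in vehicle rat 1, where the other vehicle rats were at 8.16 to 8.45, and the gap was 0.871 of the range. The Nqo1 value was not alone over all 10 rats, since 2 vehicle rats were also below 9. The second Srxn1 probe set had its lowest value, 9.47, in the same vehicle rat.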

How the results depend on the processing

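No member and no other gene passed the adjusted threshold under any alternative tried. The replicate block left 0 genes past it and 389 at an unadjusted p under 0.05, against 347 in the fit as reported. Rats sharing a number did not deviate together (r of -0.173 to 0.153), which cannot exclude a pairing of small effect. The count at an unadjusted p under 0.05 was 686 with array weights, 816 with Bmal1 as a covariate, 156 with the low-signal filter, 557 over every named probe set, 581 without CVX-060 rat 5 and vehicle rat 2, and 290 to 713 when 1 rat was left out, the highest without vehicle rat 2. The number of members higher with CVX-060, 4 as reported, was 8 with Bmal1 as a covariate, 2 without CVX-060 rat 5 and vehicle rat 2, and 3 to 6 without 1 rat. Signs turned with array weights for Nfe2l2 (0.07), Gclc (-0.12) and Txnrd1 (-0.05), with Bmal1 for Hmox1 (0.05), Gclm (0.12), Gsr (0.04) and Akr7a3 (0.24), without CVX-060 rat 5 and vehicle rat 2 for Gclc (-0.09) and Txnrd1 (-0.04), and for Srxn1 in the probe set below background (-0.05) and by medians (-0.26). Leaving out 1 rat gave -0.39 to 0.20 for Hmox1, -0.10 to 0.17 for Gclc, -0.06 to 0.03 for Gsr and -0.42 to 0.07 for Akr7a3, and with no change of sign -0.37 to -0.04 for Nfe2l2, -0.41 to -0.08 for Gclm, 0.03 to 0.26 for Txnrd1, 0.08 to 0.77 for Srxn1 and 0.26 to 1.10 for Nqo1. The pairs past the adjusted threshold, 2 as reported, were 4 with probe sets of highest mean and 0 without CVX-060 rat 5 and vehicle rat 2. They were 0 to 2 without 1 rat, with 0 when CVX-060 rat 4, vehicle rat 1 or vehicle rat 2 was left out and 1 without vehicle rat 5. Without 1 rat, the r of Gclc with Gclm was 0.77 to 0.88 and that of Gclc with Akr7a3 0.80 to 0.88, and with probe sets of highest mean these were 0.85 and 0.79. The cause of these shifts was not tested. Against the 99th percentile of the receptor probe sets, 8 of 9 members stood above background in all rats.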
